A study of Mus musculus with 29 samples.

Results

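The genes described here encode the clotting and complement proteins that the liver secretes into plasma. They were chosen by name, as the rows of the count table carrying 1 of 39 gene names, and 38 of the 39 were found among 55421 genes. The name without a row was C5, whose mouse gene is listed as Hc and is among the 38. Liver RNA of female and male mice in 6 groups was sequenced from whole tissue. Young vehicle mice were C57BL/6N of 5 months (5 females and 5 males labelled). The aged vehicle groups were of the C57BL/6J substrain, with 4 females aged 20 months and 5 labelled males aged 24 months. Old HDM201 mice had the same strain and ages as the old vehicle mice of their sex (5 females and 5 males) and received 10 mg per kg of HDM201, an inhibitor of MDM2, the ubiquitin ligase that keeps p53 levels low, by daily oral gavage for 14 days. The study names no engineered genetic change in any group, and vehicle was buffered methylcellulose. Age and substrain cannot be told apart, and old males were older than old females. The study's methods give slightly different ages from the labels. Counts were available for 27 of 29 mice, without old vehicle male 1 and young vehicle male 5, so that 4 mice remained in each of these groups.

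Coagulation is a cascade of plasma proteases. The contact proteins (F12, Klkb1, Kng1) and F11 feed the intrinsic pathway through F9, tissue factor with F7 starts the extrinsic pathway, and both activate F10, which with F5 turns prothrombin (F2) into thrombin. Thrombin cleaves fibrinogen (Fga, Fgb, Fgg) to fibrin, antithrombin and the protein C system restrain it, and plasmin from Plg dissolves the clot. Complement starts from antibody (C1, C4), from lectins that bind sugars (Mbl1, Mbl2, Masp1, Masp2) or from the alternative pathway (C3, Cfb). All routes cleave C3 and then C5, after which C6, C7, C8 and C9 assemble the membrane attack complex that makes pores in target membranes. Hepatocytes make most of these plasma proteins, and many of them rise in the acute phase response, the hepatic response to inflammation.

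Total counts ranged from 16485900 to 23570458 per mouse (median 19149235), and levels are given as CPM, counts scaled to a common library size by TMM. All 27 mice matched their labelled sex by Xist and Ddx3y. A group of 4 mice stood apart by Saa1, a serum amyloid A gene and a strong acute phase marker. Saa1 stood at 793, 2662 and 841 CPM in young vehicle males 2, 3 and 4 and at 1526 CPM in old HDM201 male 5, against 207 CPM or less in the other mice and 20.7 CPM in young vehicle male 1. Calls of the members that rest on these mice are given with and without them, which leaves a single young male. Summed hepatocyte markers (9 of 10 names found) ranged from 86528 to 171726 CPM over all mice. In whole liver, fewer cells of a type and less RNA per cell cannot be told apart.

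Promoter sequence is shown for the 5 members with the largest differences described below, C6, C8a, C8b and C9 between the sexes and F11 with age and HDM201. Each window holds 200 bases, from 250 to 51 bases before the RefSeq start in GRCm38.p6, written 5′ to 3′ on the strand of the gene. Capitals mark matches to 1 of 6 motifs searched on both strands: TTCNNNGAA of STAT factors, GTTAAT of HNF1, CAAAGT of HNF4, TTGCGCAA of C/EBP factors, TGTTTAC of FOXA factors and the TATA box letters TATAAA. No matches overlapped in these 5 windows. The windows lie at chr15:4726960-4727159 for C6 and chr15:6445096-6445295 for C9 on the plus strand, at chr4:104766067-104766266 for C8b on the plus strand, and at chr4:104876449-104876648 for C8a and chr8:45262082-45262281 for F11 on the minus strand.
C6: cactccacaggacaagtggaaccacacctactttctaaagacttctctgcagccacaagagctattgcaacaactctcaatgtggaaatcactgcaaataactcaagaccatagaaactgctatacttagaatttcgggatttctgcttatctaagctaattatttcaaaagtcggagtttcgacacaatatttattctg
C9: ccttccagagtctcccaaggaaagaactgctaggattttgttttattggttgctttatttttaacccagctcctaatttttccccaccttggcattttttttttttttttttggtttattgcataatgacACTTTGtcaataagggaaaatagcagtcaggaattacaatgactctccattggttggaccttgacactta
C8a: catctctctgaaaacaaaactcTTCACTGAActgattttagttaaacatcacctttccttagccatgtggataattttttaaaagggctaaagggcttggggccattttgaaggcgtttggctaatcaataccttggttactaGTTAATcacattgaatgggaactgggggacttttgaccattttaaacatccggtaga
C8b: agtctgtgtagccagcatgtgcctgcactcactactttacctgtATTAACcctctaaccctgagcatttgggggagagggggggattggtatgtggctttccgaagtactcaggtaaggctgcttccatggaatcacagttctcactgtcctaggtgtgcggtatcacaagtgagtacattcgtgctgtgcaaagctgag
F11: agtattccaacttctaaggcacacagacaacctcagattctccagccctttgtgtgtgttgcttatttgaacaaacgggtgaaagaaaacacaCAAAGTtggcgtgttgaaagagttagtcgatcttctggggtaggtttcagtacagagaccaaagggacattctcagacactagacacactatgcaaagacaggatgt

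Of 38 members, 30 had a promoter in RefSeq. The STAT motif was found in the windows of 5 of these (C8a, F9, Fga, Fgb, Pros1), against 5.89% of all 27025 promoters. The HNF1 motif, of a factor that binds many liver genes, was also found in 5 (C4bp, C8a, C8b, Hc, Vtn), against 5.4% of all promoters. HNF4 letters were present in 3 (C9, F11, Serpind1; 10.4% of all promoters) and TATA letters in 3 (Hc, Klkb1, Vtn; 9.48%). C/EBP letters (0.13% of all promoters) and FOXA letters (2.51%) were in no member's window, and the window of C6 held none of the 6 motifs. These are matches of letters, not binding sites. Several members lie side by side on the same chromosome: F7 and F10 with 1.5 kb between them, F11 and Klkb1 with 4.7 kb, the fibrinogen genes, and C8a and C8b with 11.1 kb, while C6 and C9 are 1630.4 kb apart on chromosome 15.

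To compare levels between genes, counts were divided by exon length and rescaled to the same total in every mouse (TPM). Summed over members, CPM ranged from 39381 to 65427 over the 27 mice. The complement component C3 was the most abundant, with a median of 4485 TPM over 27 mice, followed by the fibrinogen chains Fgg (4118 TPM) and Fga (4053 TPM) and by vitronectin (Vtn, 3476 TPM). The ranges of C3, Fgg and Fga over mice overlapped, so their order was not resolved. At the low end were C6 (17.3 TPM), protein S (Pros1, 33.8 TPM), Masp1 (40.2 TPM) and F11 (59.3 TPM). The order depends on the length assigned to a gene. In the authors' FPKM the antithrombin gene Serpinc1 was the highest member, with a median of 3370 FPKM against 775 TPM here, and Cfb stood at 582 FPKM against 150.0 TPM.

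Members differed widely in how much they varied. In 20 of 38 members the highest mouse was under 2 times the lowest, among them F12, Kng1, F2, Plg, Proc and Serpinc1. In 4 members, all of the terminal complement pathway, it was over 5 times the lowest: 55.2-fold in C6, 21.6-fold in C8a, 13.6-fold in C8b and 6.54-fold in C9. Over 7 comparisons of 2 groups, 25 members were called in at least 1 at a false discovery rate (FDR) under 0.05 in edgeR's quasi-likelihood test (Benjamini-Hochberg adjusted over all genes tested), and 13 in none. The share of all genes called in at least 1 of the 7 was not computed. Age in females alone gave 4530 called genes of 14233 tested. The 13 members included all 3 fibrinogen chains, prothrombin, plasminogen, antithrombin, vitronectin, protein C and C8g. Other settings called some of these, as described below.

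**Figure D1:**
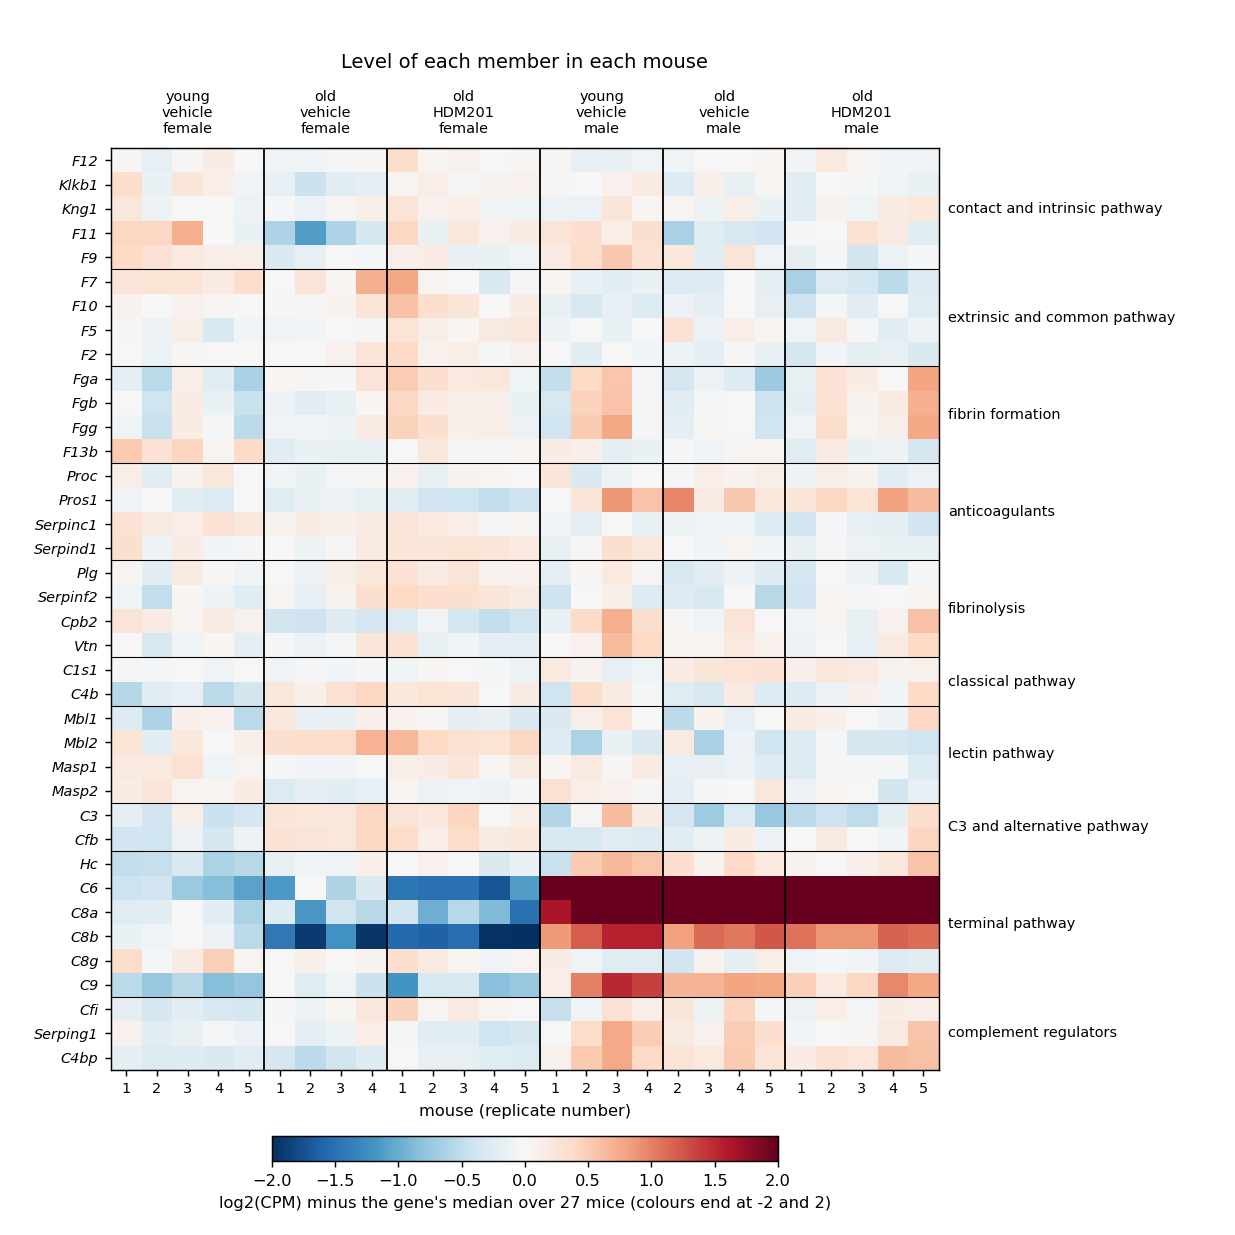
Log2 CPM of the 38 members (rows, by role) in each of 27 mice (columns, by group), as the difference from the gene's median over all mice, with colors ending at -2 and 2. The red block at the right of the terminal pathway shows C6, C8a, C8b and C9 high in the 13 males, with C6 at 22.6 CPM or less in every female.

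The largest differences were between the sexes and lay in the terminal pathway. In 6 members every one of 14 females was below every one of 13 males: C6, C8a, C8b and C9 of the terminal pathway, the complement regulator C4bp and the anticoagulant Pros1. All 6 were also called lower in females in each of the 3 sex comparisons. The shares of all genes that separate the sexes in this way, or are called in all 3 comparisons, were not computed. Among young vehicle mice 9 members were called, 1 higher and 8 lower in females, against 5.63% (higher) and 4.91% (lower) among all tested genes. Among old vehicle mice 3 were called higher and 8 lower (8.4% and 9.6% of all genes), and among old HDM201 mice 6 higher and 8 lower (8.92% and 8.51%). With library totals in place of TMM, the split was 12 higher and 7 lower in old vehicle mice and 9 higher and 8 lower in old HDM201 mice. The median log2 fold change over the 38 members was -0.06, -0.04 and 0.08 in the 3 comparisons, and over all genes -0.00405, 8.75e-05 and -0.00897.

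C6, which joins activated C5 as the first step of pore assembly, had the widest gap. Young vehicle females held 16.9, 17.3, 13.5, 12.6 and 10.7 CPM, and young vehicle males 172, 222, 297 and 376 CPM. Old vehicle females held 10.2, 22.6, 14.8 and 18.4 CPM, against 250.1, 312, 178 and 309 CPM in old vehicle males. Old HDM201 females held 8.28, 8.02, 8.01, 6.82 and 10.4 CPM, and old HDM201 males 311, 189, 221, 365 and 287 CPM. The lowest male was thus 7.61 times the highest female. In females C6 was lower by log2 fold changes of -4.25 ± 0.23 (SE) in young vehicle mice (19.0-fold, FDR 2.2e-07), -3.99 ± 0.27 in old vehicle mice (15.9-fold, FDR 1.54e-05) and -5.05 ± 0.20 in old HDM201 mice (33.2-fold, FDR 5.75e-09).

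C8 is made of an alpha and a beta chain, encoded by the neighbors C8a and C8b, and a gamma chain encoded by C8g on chromosome 2. C8a stood at 115, 117, 137, 119 and 88.7 CPM in young vehicle females and at 423, 738, 882 and 879.9 CPM in young vehicle males. In old vehicle mice it was 114, 60.9, 104 and 93.0 CPM in females and 566, 640.3, 716 and 755 CPM in males. In old HDM201 mice it was 105, 69.7, 93.1, 74.1 and 48.5 CPM in females and 705, 626, 616, 816 and 1048 CPM in males. Females were lower by log2 fold changes of -2.68 ± 0.20, -2.85 ± 0.19 and -3.29 ± 0.22 (SE) in the 3 comparisons (FDR 5.85e-06, 1.54e-05 and 1.04e-06), with no overlap of the sexes.

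C8b was also lower in females, without overlap of the sexes. Young vehicle females held 117, 122, 129, 119 and 89.4 CPM and young vehicle males 232, 298, 374 and 378 CPM. Old vehicle females held 47.9, 34.4, 55.6 and 33.3 CPM and old vehicle males 227, 284, 266 and 305 CPM. Old HDM201 females held 44.0, 42.1, 44.8, 32.6 and 27.7 CPM and old HDM201 males 275, 238, 238, 291 and 279 CPM. The log2 fold changes were -1.49 ± 0.15, -2.66 ± 0.18 and -2.79 ± 0.14 (SE; FDR 8.58e-05, 1.54e-05 and 6.72e-08). The third chain, C8g, was not called in any comparison and pointed the other way, with log2 fold changes of 0.30, 0.13 and 0.23 (FDR 0.148, 0.447 and 0.101).

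C9, which polymerizes into the wall of the pore, stood at 184, 158, 182, 149 and 157 CPM in young vehicle females, against 294, 537, 762 and 691 CPM in young vehicle males. The lowest of these males was male 1, the young male with low Saa1. Old vehicle females held 268, 227, 252 and 198 CPM and old vehicle males 428, 427, 461 and 455 CPM. Old HDM201 females held 116, 214, 216, 150.3 and 158 CPM and old HDM201 males 371, 305, 357, 522 and 459 CPM. Females were lower by -1.80 ± 0.22, -0.91 ± 0.10 and -1.24 ± 0.19 (log2 fold change ± SE; FDR 0.000325, 0.000425 and 0.000832).

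Hc, which encodes C5, was called between young mice only. Young vehicle females held 605, 616, 687, 547 and 577 CPM, and young vehicle males 622, 1216, 1330.1 and 1252 CPM, so that male 1 lay within the range of the females. The log2 fold change was -0.88 ± 0.19 (SE; FDR 0.0127). Old vehicle females held 762, 819, 813 and 907 CPM and old vehicle males 1072, 890.1, 1125 and 976 CPM (-0.30, FDR 0.0589). Old HDM201 females held 848, 899.7, 842, 691 and 771 CPM and old HDM201 males 889, 849, 906, 983 and 1254 CPM (-0.28, FDR 0.135). Whether the sex difference of Hc itself differed with age was tested as an interaction and was not called (0.59, FDR 0.149).

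Without the 4 mice high in Saa1, the comparison of young mice kept 4 called members, C6, C8a, C8b and C9, all still lower in females. Their log2 fold changes were then -3.62, -1.89, -1.03 and -0.84 with the single remaining male, which is assumed to vary like the females, against -4.25, -2.68, -1.49 and -1.80 with all males. Hc fell away from the call, with a log2 fold change of -0.05 (FDR 0.918). In old HDM201 mice without male 5, 10 members were called. C6, C8a, C8b, C9, C4bp and Pros1 stayed lower in females (-5.04, -3.15, -2.77, -1.19, -0.50 and -0.84), Mbl2, Serpind1 and Serpinf2 stayed higher (0.66, 0.34 and 0.37), and C3 became called (0.61, FDR 0.0119). F7, F10, Masp1, Cpb2 and Serping1 were no longer called (FDR 0.0582, 0.0517, 0.0754, 0.0618 and 0.0762).

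**Figure D2:**
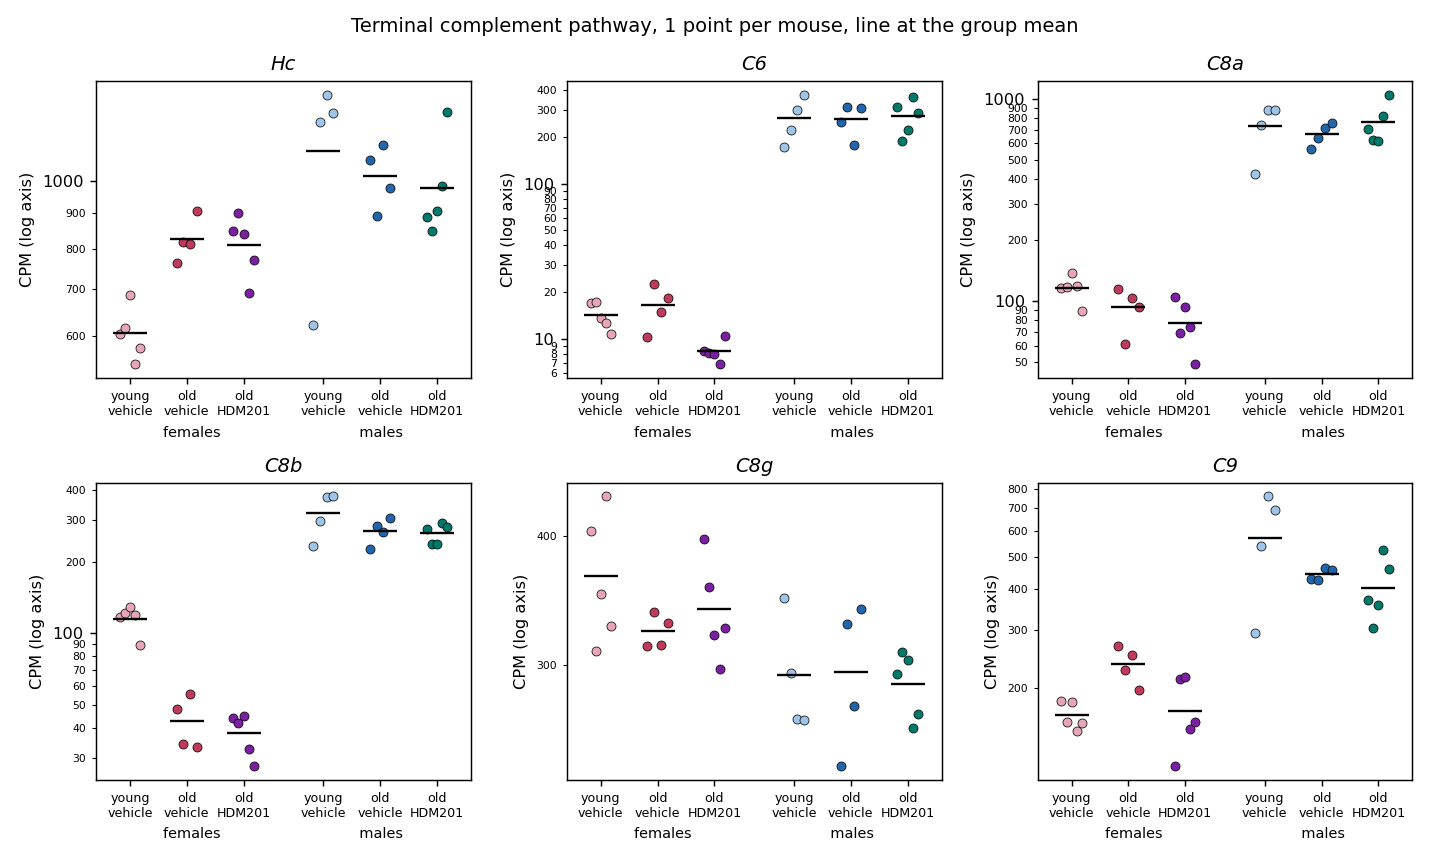
CPM (log axes) of the 6 terminal pathway genes, 1 point per mouse with a line at the group mean, for 3 groups of females (left) and 3 groups of males (right). C6, C8a, C8b and C9 do not overlap between the sexes, C8g overlaps, and in Hc young vehicle male 1 (622 CPM) lies among the young females.

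Among the regulators, C4bp, which binds C4b and helps Cfi to inactivate it, was lower in females in all 3 comparisons. It stood at 419, 394, 399, 390.4 and 411 CPM in young vehicle females and 506, 683, 804 and 621 CPM in young vehicle males. In old vehicle mice it was 379, 334, 372 and 400.1 CPM in females and 570.2, 544, 686 and 570.3 CPM in males, and in old HDM201 mice 478, 427, 425, 405 and 395 CPM in females and 533, 582, 556, 730.0 and 717 CPM in males. The log2 fold changes were -0.71, -0.68 and -0.56 (FDR 0.00425, 0.00187 and 0.00428). Without the mice high in Saa1 the first was -0.35 (FDR 0.262).

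Pros1 encodes protein S, the cofactor of activated protein C. Young vehicle females held 53.9, 56.1, 48.3, 46.5 and 56.4 CPM and young vehicle males 56.7, 66.9, 103 and 84.1 CPM. Old vehicle females held 47.5, 51.5, 51.9 and 50.7 CPM and old vehicle males 111, 63.3, 81.6 and 65.9 CPM. Old HDM201 females held 48.5, 43.3, 42.7, 40.3 and 42.6 CPM and old HDM201 males 67.1, 75.4, 68.0, 99.0 and 86.3 CPM. Females were lower by -0.59 ± 0.15, -0.68 ± 0.16 and -0.87 ± 0.11 (log2 fold change ± SE; FDR 0.029, 0.0186 and 0.00021), and in young mice the lowest male and the highest female were nearly level. The call in young mice was lost without male 3, male 4 or any 1 of the 5 females (FDR up to 0.0871) and without the mice high in Saa1 (-0.14, FDR 0.735), and the call in old vehicle mice was lost without female 1 or female 4 (FDR up to 0.0542).

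The C1 inhibitor Serping1, which also restrains F12 and plasma kallikrein, was called lower in females among young vehicle mice and among old HDM201 mice, with overlap of the sexes in both. It stood at 889, 713, 751, 810.4 and 771 CPM in young vehicle females, at 829.6, 736, 781 and 919 CPM in old vehicle females and at 808, 716, 724, 636 and 664 CPM in old HDM201 females. Males held 837, 1074, 1413 and 1169 CPM when young, 942, 883, 1178 and 1054 CPM when old on vehicle and 804, 834, 849, 940.1 and 1240.3 CPM when old on HDM201. The log2 fold changes were -0.53 (FDR 0.0368), -0.32 (FDR 0.0775) and -0.40 (FDR 0.0459). Leaving out any 1 of 8 of the 9 young mice, all but male 1, ended the first call (FDR up to 0.105), and without the mice high in Saa1 the value was -0.11 (FDR 0.822). Leaving out any 1 of 7 of the 10 old HDM201 mice, females 2 to 5 and males 3 to 5, ended the third (FDR up to 0.108), and without male 5 the value was -0.28 (FDR 0.0762).

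Cpb2 encodes a carboxypeptidase that slows fibrinolysis by trimming fibrin. Females held 386, 362, 337, 365 and 345 CPM when young, 251, 245, 271 and 257 CPM when old on vehicle and 267, 309, 254, 231 and 247 CPM when old on HDM201. Males held 297, 424, 539 and 404 CPM when young, 328, 309.8, 386 and 325 CPM when old on vehicle and 308, 337, 293, 344 and 488 CPM when old on HDM201. It was lower in females of the old vehicle group (-0.40, FDR 0.0128) and of the old HDM201 group (-0.44, FDR 0.0416), with overlap of the sexes in the latter. The second call was lost without females 1, 3, 4 or 5 or males 2, 4 or 5 (FDR up to 0.101), and without male 5, the mouse high in Saa1, the value was -0.30 (FDR 0.0618).

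Other members were called higher in females. Mbl2, a mannose-binding lectin that starts the lectin pathway, stood at 528, 378, 505, 435 and 465 CPM in young vehicle females, 541, 553, 561 and 705 CPM in old vehicle females and 693, 575, 539, 524 and 582 CPM in old HDM201 females. In males it was 364, 281, 397 and 356 CPM, then 495, 276, 401 and 332 CPM, then 360.4, 422, 347, 340.5 and 331 CPM in the same order of groups. The log2 fold changes were 0.39 (FDR 0.0754), 0.65 (FDR 0.0277) and 0.69 (FDR 0.000733). The call in old vehicle mice was lost without female 2, female 4 or male 5 (FDR up to 0.0791), and the call in old HDM201 mice held without each mouse in turn.

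F7, the protease that binds tissue factor, was called higher in females among young vehicle mice and old HDM201 mice. It stood at 179, 181, 181, 169 and 192 CPM in young vehicle females and 156, 134, 129.8 and 136 CPM in young vehicle males, without overlap (0.36 ± 0.09 SE, FDR 0.0222). Old vehicle females held 150.2, 179, 155 and 246 CPM and old vehicle males 124, 125, 151 and 131 CPM (0.46, FDR 0.0637). Old HDM201 females held 256, 156, 151, 122 and 148 CPM and old HDM201 males 96.2, 125, 118, 105 and 125 CPM (0.54 ± 0.17 SE, FDR 0.0459), where female 1 was far above the others. Without female 1 the last value was 0.34 (FDR 0.0471), still called, and without male 5 it was 0.58 (FDR 0.0582). In young mice the value without the mice high in Saa1 was 0.19 (FDR 0.581). The first call was lost without males 2, 3 or 4 or female 5 (FDR up to 0.0704), and the last without any 1 of 8 of the 10 mice, all but females 1 and 4 (FDR up to 0.101).

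In old HDM201 mice F10 (0.44, FDR 0.026), Serpinf2, the plasmin inhibitor (0.35, FDR 0.0323), Serpind1, the thrombin inhibitor heparin cofactor II (0.35, FDR 0.00468), and Masp1, a protease of the lectin pathway (0.27, FDR 0.036), were also higher in females. Of these, Serpind1 held its call without each of the 10 mice in turn. F10 lost it without female 2 or males 1, 3 or 5 (FDR up to 0.0609), Serpinf2 without females 1 to 4 or males 1 or 3 (FDR up to 0.0659) and Masp1 without females 2, 3 or 5 or males 1 or 5 (FDR up to 0.0853). In old vehicle mice C3 (0.78, FDR 0.00468) and Cfb (0.36, FDR 0.0251) were higher in females and C1s1, the C1s protease of the classical pathway (-0.29, FDR 0.0164), was lower. Cfb lost its call without females 1, 2 or 4 or males 3 or 5 (FDR up to 0.0749) and C1s1 without female 1 (FDR 0.0558). C1s1 was also not called with library totals, no filter on low counts, the replicate number as a block or limma on FPKM. Its log2 fold change ranged from -0.29 to -0.10 over the alternative settings. The replicate block and limma did not call Cfb either. Serpinc1 was close to the threshold in all 3 comparisons, at 0.31 (FDR 0.0847), 0.26 (FDR 0.0578) and 0.34 (FDR 0.0505). DESeq2, library totals and a fit of all 6 groups called it in all 3, and limma on FPKM in both old comparisons. Young vehicle females held 2992 to 3315.5 CPM and young vehicle males 2360 to 2715 CPM. Old vehicle females held 2850 to 3032 CPM and old vehicle males 2272 to 2548 CPM, again without overlap. The old HDM201 groups overlapped.

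**Figure D3:**
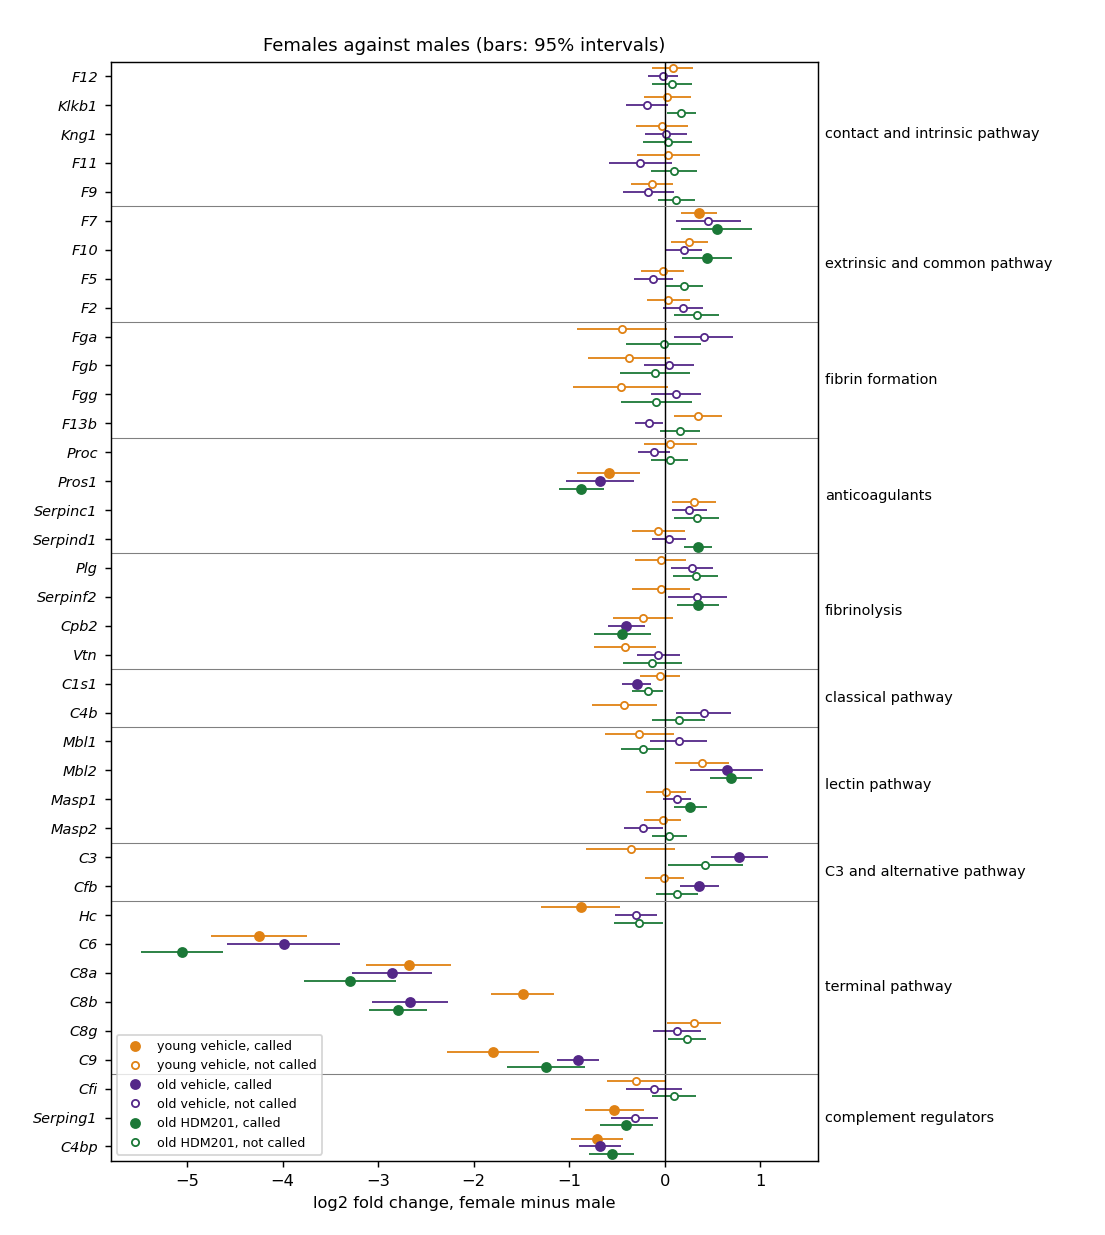
Log2 fold change of females against males (x axis, female minus male) for the 38 members (rows, by role), with the 3 comparisons in different colors within each row. Filled points were called at an FDR under 0.05 and bars are 95% intervals. The values of C6 (-4.25, -3.99, -5.05), C8a and C8b stand far left of the rest, and most clotting factors lie near 0.

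Old vehicle against young vehicle females gave 14 called members, 7 higher and 7 lower, where 16.8% of all genes were called higher and 15% lower. With library totals in place of TMM, which moved the median of all genes by 0.111 on the log2 scale, the split was 11 higher and 5 lower. The 7 higher members were C4b, Cfb, C9, C3, Hc, Mbl2 and Cfi, which belong to complement. Clotting and fibrinolysis members joined the higher calls under other settings: F2, Fga, Serpinf2 and Vtn with library totals, Fga with no filter on low counts, and F2, Fga, Serpinf2, Serpinc1 and F10 with limma on FPKM. The 7 lower members were 5 of clotting and fibrinolysis (F11, Klkb1, F9, F13b, Cpb2) and 2 of complement (C8b, Masp2). The median over the members was 0.05, against 0.00939 over all genes.

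C4b, the C4 component cleaved by C1s and Masp2, stood at 1406, 1795, 1875, 1450.0 and 1616 CPM in young vehicle females and at 2439.9, 2238, 2569 and 2789 CPM in old vehicle females (0.64 ± 0.11 SE, 1.56-fold, FDR 0.000971). C3 stood at 8378, 7374, 10421, 7104 and 7577 CPM in young vehicle females and at 11296, 11140.5, 11217 and 12773 CPM in old vehicle females (0.53 ± 0.12 SE, FDR 0.00558). Cfb, the protease of the alternative pathway, stood at 138, 137, 166, 142 and 168 CPM when young and at 220.0, 216, 211 and 241 CPM when old (0.58 ± 0.09 SE, FDR 0.000584). None of the 3 overlapped between the age groups. C9 (0.53, FDR 0.00211), Hc (0.46, FDR 0.00205), Mbl2 (0.37, FDR 0.0247) and Cfi, which inactivates C3b and C4b (0.34, FDR 0.0104), were higher as well. Mbl2 lost the call without old vehicle female 4 or young vehicle female 4 (FDR up to 0.0899).

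C8b showed the largest age difference of any member, from 89.4 to 129 CPM in young females to 33.3 to 55.6 CPM in old females (-1.41 ± 0.16 SE, 2.66-fold lower, FDR 8.71e-05). Its neighbor C8a overlapped between the ages (-0.29, FDR 0.187), as did C6 (0.24, FDR 0.389). F11, the zymogen that activates F9, was lower in old females, at 36.6, 25.9, 36.5 and 44.2 CPM against 74.7, 74.6, 92.9, 55.6 and 51.4 CPM when young (-0.95 ± 0.18 SE, 1.93-fold, FDR 0.00202). F13b, the carrier subunit of the factor that crosslinks fibrin, stood at 154, 163, 162 and 161 CPM when old and at 257, 219, 239, 186 and 231 CPM when young (-0.48 ± 0.09 SE, FDR 0.00216).

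Cpb2 was lower in old females too (-0.47 ± 0.07 SE, FDR 0.000697, levels above), without overlap. Smaller decreases were called for Klkb1, which encodes plasma prekallikrein (-0.34, FDR 0.0293), F9 (-0.32, FDR 0.0151) and the lectin pathway protease Masp2 (-0.32, FDR 0.0052). Klkb1 lost its call without old vehicle females 2 or 3 or young vehicle females 1 or 3 (FDR up to 0.0959) and F9 without old vehicle female 1 (FDR 0.0573). With library totals Klkb1 and F9 were not called (-0.22 and -0.21, FDR 0.111 and 0.0593), and limma on FPKM called none of the 3 (-0.06, -0.17 and -0.12 for Klkb1, F9 and Masp2, FDR 0.681, 0.11 and 0.113). The fibrinogen chains were not called, with log2 fold changes of 0.36 for Fga (FDR 0.0738), 0.07 for Fgb (FDR 0.721) and 0.17 for Fgg (FDR 0.376).

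In males, age gave a single called member, F11, where 2.76% of all genes were called higher and 0.931% lower. F11 stood at 67.0, 70.9, 61.6 and 69.7 CPM in young vehicle males and at 35.6, 47.3, 44.7 and 42.9 CPM in old vehicle males, again without overlap (-0.65 ± 0.10 SE, 1.57-fold lower, FDR 0.0112). Without the mice high in Saa1, leaving 1 young male, the log2 fold change was -0.66 (FDR 0.207), of the same size. The median over the members was -0.12, against -0.015 over all genes. C3 stood at 6365, 9713, 14702 and 10669 CPM in young vehicle males and at 7586, 5831, 7896 and 5681 CPM in old vehicle males (-0.61, FDR 0.184), and Cfb at 145, 145, 155 and 151 CPM and 156, 168, 201 and 167 CPM (0.22, FDR 0.231).

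The effect of age differed between the sexes in 4 members by the interaction term (female change minus male change), where 3.92% of all genes were called in either direction. These were C3 (1.15 ± 0.27 SE, FDR 0.0293), C4b (0.84 ± 0.21, FDR 0.035), C8b (-1.16 ± 0.24, FDR 0.0153) and F13b (-0.50 ± 0.14, FDR 0.0491). With library totals 3 were called, 2 positive and 1 negative. C4b stood at 1593, 2670.3, 2343 and 2044 CPM in young vehicle males and at 1769, 1682, 2365 and 1745 CPM in old vehicle males. F13b stood at 197, 192, 156 and 162 CPM in young vehicle males and at 175, 169, 186 and 185 CPM in old vehicle males. In both genes the male groups overlapped.

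Young vehicle males 2, 3 and 4, high in Saa1, also held the highest C3, C4b and Hc of their group. Without the mice high in Saa1 none of the interactions was called: C3 was 0.45 (FDR 0.492), C4b 0.40 (FDR 0.502) and F13b -0.34 (FDR 0.427), while C8b was -1.63 (FDR 0.0585), larger than with all mice. C8b also kept its call without each mouse in turn. C3 lost it without old vehicle females 1 or 4, old vehicle male 5 or young vehicle males 3 or 4 (FDR up to 0.0622), C4b without any 1 of 11 of the 17 mice (old vehicle females 1 and 4, old vehicle males 2, 3 and 5, young vehicle males 2 to 4 and young vehicle females 1, 4 and 5; FDR up to 0.076) and F13b without any 1 of 15, all but young vehicle male 1 and young vehicle female 4 (FDR up to 0.0992).

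**Figure D4:**
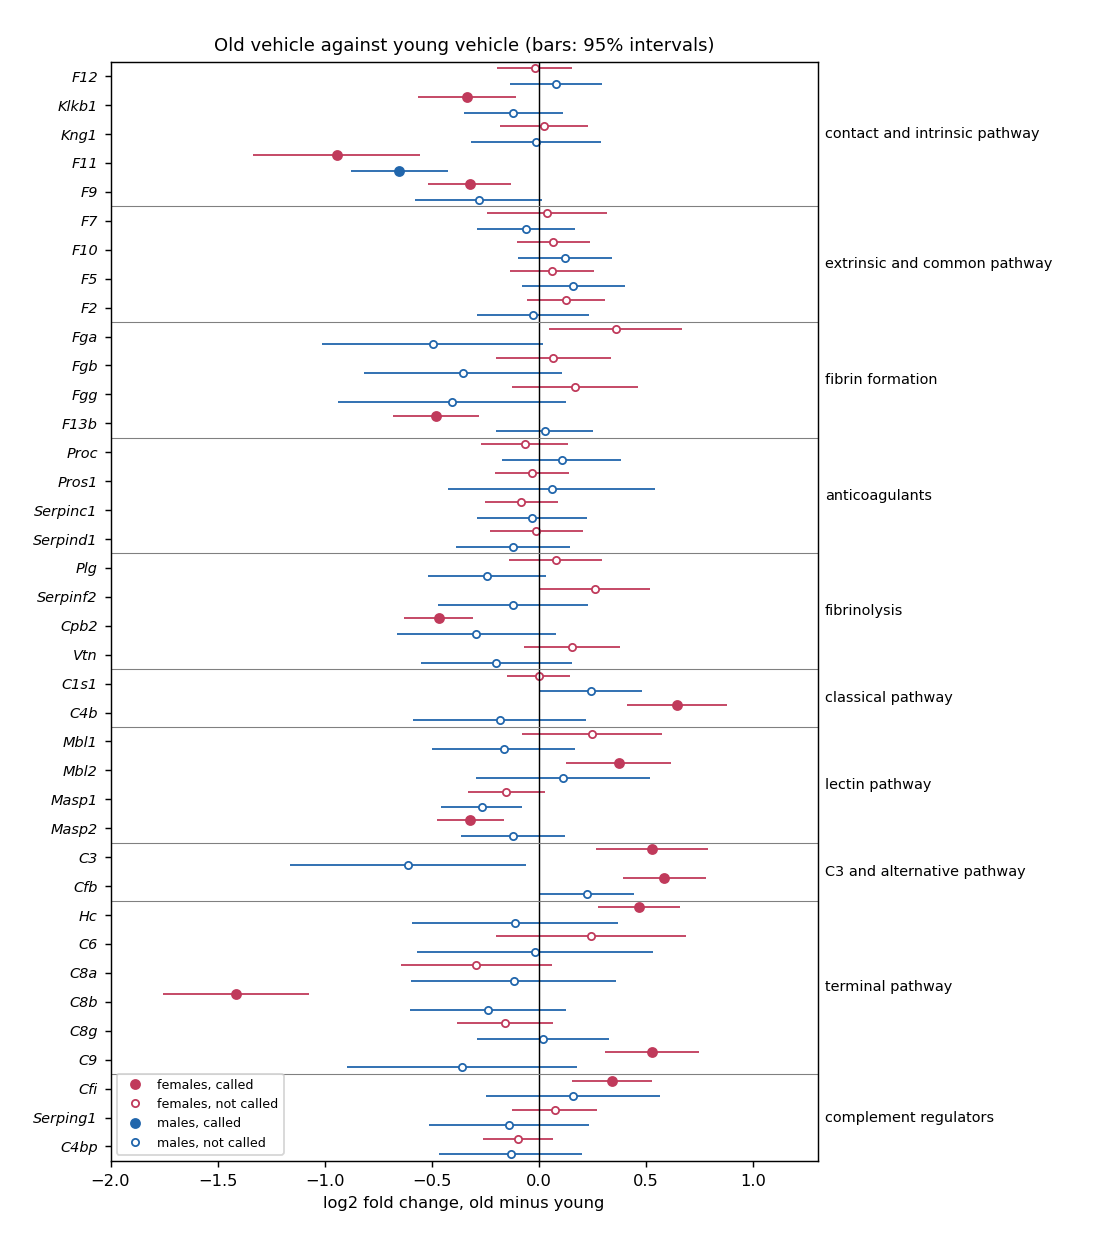
Log2 fold change of old vehicle against young vehicle mice (x axis, old minus young) for the 38 members (rows, by role) in females and in males. Filled points were called at an FDR under 0.05 and bars are 95% intervals. F11 is low in both sexes (-0.95 and -0.65), while C8b (-1.41 and -0.24) and C3 (0.53 and -0.61) differ between them.

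HDM201 was compared with vehicle to ask what MDM2 inhibition does in aged liver. In females 3 members were called, 2 higher (F11 and Klkb1) and 1 lower (C6), where 2.35% of all genes were called higher and 2.9% lower. With library totals the split was 2 higher and 2 lower. The median over the members was 0.05, against 0.00104 over all genes. F11 stood at 74.8, 51.4, 65.9, 59.7 and 61.9 CPM in old HDM201 females, above all of the old vehicle females (25.9 to 44.2 CPM), with a log2 fold change of 0.80 ± 0.14 (SE; 1.74-fold, FDR 0.0115). The call held without each mouse in turn (log2 fold change from 0.67 to 0.92). This range also covered the lower part of that of young vehicle females (51.4 to 92.9 CPM). The age and HDM201 comparisons share the old vehicle females, so their opposite signs in F11 and Klkb1 are not independent.

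Klkb1, next to F11 on chromosome 8, stood at 209.6, 221, 204, 212 and 214 CPM in old HDM201 females and at 179, 149.6, 172 and 178 CPM in old vehicle females, without overlap (0.31 ± 0.07 SE, 1.24-fold, FDR 0.0255). Young vehicle females held 255, 182, 238, 219.6 and 191 CPM. C6 was lower in old HDM201 females, at 6.82 to 10.4 CPM against 10.2 to 22.6 CPM (-1.01 ± 0.19 SE, 2.01-fold, FDR 0.017), with HDM201 female 5 just above vehicle female 1. Both calls were lost without old vehicle female 2 (FDR 0.075 for Klkb1 and 0.0568 for C6), without old vehicle female 4 (0.052 and 0.0527) or without old HDM201 female 4 (0.0593 and 0.0502). In a fit of all 6 groups or with the replicate number as a block, Klkb1 was not called. Limma on FPKM called neither gene. C9 was lower without a call (-0.47, FDR 0.113), and the complement genes C3 (-0.07, FDR 0.729), C4b (-0.09, FDR 0.59) and Cfb (-0.05, FDR 0.727), higher with age, differed little. C3 stood at 11489, 11122, 12929.9, 9585 and 10459 CPM, C4b at 2416, 2528, 2480.0, 2089 and 2346 CPM and Cfb at 234, 198, 232, 204 and 209 CPM in old HDM201 females.

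In males no member was called with HDM201 by edgeR, where 0.00709% of all genes were called in either direction; 3 of the 38 had an unadjusted p under 0.05, DESeq2 called 1 (F11) and limma on FPKM none. F11 stood at 55.4, 56.1, 69.1, 63.0 and 48.5 CPM in old HDM201 males, above all of the old vehicle males (35.6 to 47.3 CPM), with a log2 fold change of 0.46 (95% interval 0.21 to 0.71, FDR 0.225). Klkb1 stood at 171, 200.4, 195, 188 and 180.4 CPM against 168, 216, 181 and 207 CPM (-0.04, interval -0.24 to 0.16). C6 gave 0.08 (interval -0.40 to 0.55), C3 0.30 (interval -0.18 to 0.78) and Fga 0.60 (interval 0.14 to 1.06, FDR 0.324). Fga stood at 4292, 5871, 5275, 4781 and 8248 CPM in these males, where the highest was male 5, the mouse high in Saa1. C3 stood at 6679, 7214, 6757, 8437 and 12241 CPM, again highest in male 5, and C4b at 1743, 1922, 2248, 2003 and 2746 CPM. The median over the members was -0.02, against 0.0136 over all genes.

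Whether the effect of HDM201 differed between the sexes was tested as an interaction, and no member was called by edgeR, where 0.107% of all genes were called in either direction. The unadjusted p was under 0.05 in 7 of 38 members, DESeq2 called 3 (Klkb1, C6 and Serpind1) and limma on FPKM none. With library totals, which moved the median of all genes by -0.121, no member was called either. The interaction was -1.07 for C6 (interval -1.73 to -0.41, FDR 0.0916), 0.36 for Klkb1 (interval 0.12 to 0.60, FDR 0.111) and 0.35 for F11 (interval -0.06 to 0.76, FDR 0.352). The data therefore did not resolve whether these members respond differently in females and males.

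**Figure D5:**
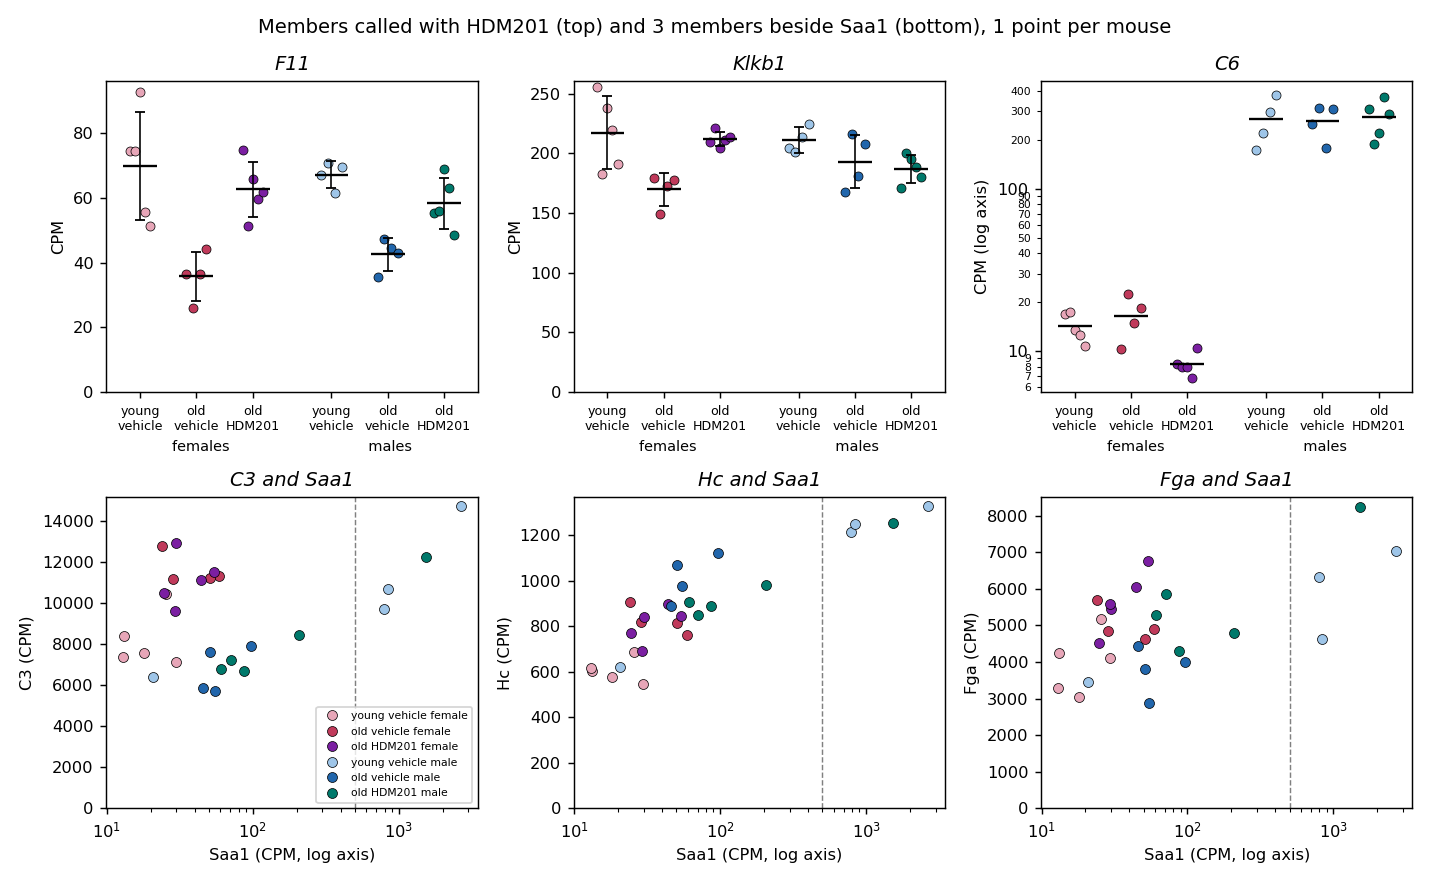
Top, CPM of F11, Klkb1 and C6 (log axis for C6) by group, 1 point per mouse with the mean (and SD for F11 and Klkb1). Bottom, CPM of C3, Hc and Fga against Saa1 CPM (log axis) in 27 mice, with a dashed line at 500 CPM. F11 is lowest in the old vehicle groups of both sexes, and the 4 mice right of the line, of which 3 are young vehicle males, hold Hc from 1216 to 1330.1 CPM.

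Genes of the same pathways that are not made mainly by hepatocytes or act on cells were followed from fixed lists. Of 29 other coagulation genes, 6 were higher and 3 lower with age in females (25 tested, where 16.8% and 15% of all genes were called), and 0 were called with HDM201 in females (27 tested by edgeR, 2 with an unadjusted p under 0.05). With age in females the called genes included Serpine2, a protease inhibitor (1.48), Gas6, a vitamin K-dependent ligand related to protein S (1.38), Fgl1, a fibrinogen-like hepatokine (1.31), Plaur (1.18) and tissue factor F3 (-0.71). Between the sexes, the thrombin receptor F2r was lower in females in all 3 comparisons (-1.03, -1.65 and -1.61) and so was Serpine2 (-1.56, -1.08 and -1.59). The young and old HDM201 values without the mice high in Saa1 were -1.30 and -1.62 for F2r and -2.14 and -1.57 for Serpine2, all called.

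Of 29 other complement genes, 24 were tested in old females with HDM201, and 5 were lower and 1 higher, where 2.9% and 2.35% of all genes were called: Cfp (-1.20), C1qa (-1.05), C1qc (-1.04), C1qb (-0.93) and Vsig4 (-0.82) fell, and C1rl (0.39) rose. C1q, properdin (Cfp) and the receptor Vsig4 are known from macrophages. With age in females 11 of this list were higher and 6 lower, against the 16.8% and 15% of all genes, with the anaphylatoxin receptors C3ar1 (1.62) and C5ar1 (1.31) and C1qa (1.26) the largest. With age in males 3 were higher (C5ar1 2.20, C1qc 1.38, C1qa 1.28), where 2.76% of all genes were. When the mice high in Saa1 were left out, these were 2.11, 1.42 and 1.29 and none was called (FDR 0.255, 0.291 and 0.318). C1qa stood at 57.6, 109, 65.4 and 88.1 CPM in old vehicle females, at 31.0 to 39.8 CPM in young vehicle females and at 32.1 to 47.8 CPM in old HDM201 females. Of 10 macrophage markers, 7 were lower with HDM201 in females and 9 higher with age in females, read against the same shares of all genes. Their summed CPM was 364 to 769 in old vehicle females, 221 to 334 in young vehicle females and 225 to 370.5 in old HDM201 females, with 1 marker, Itgam, at 0 in 1 mouse and no other at 0. Their part in the complement results was not tested.

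C4a, the paralog of C4b known in mice as the sex-limited protein, had the largest sex difference of that list, with log2 fold changes of -3.67, -3.94 and -3.28 (FDR 1.68e-06, 0.00031 and 5.61e-07). The first and the last were -3.89 and -3.14 without the mice high in Saa1, both called. C4a stood at 3.94 to 13.8 CPM in females and at 50.9 to 333 CPM in males. Because C4a and C4b are nearly identical and lie in 1 gene cluster, reads could be split between them, and values of both are uncertain to that extent.

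The summed CPM of 21 acute phase genes was 12712, 23244, 41757 and 24529 in young vehicle males 1 to 4 and 42060 in old HDM201 male 5. It ranged from 10733 to 13029 in young vehicle females and from 14834 to 19377 in old vehicle females. The 2 highest sums were those of young vehicle male 3 and old HDM201 male 5. Of the 21, 10 were lower and 1 higher in young females than in young males, led by Saa2 (-6.03), Saa1 (-5.78) and Lcn2 (-3.28), and 9 were called in the interaction of sex and age, where 4.91%, 5.63% and 3.92% of all genes were called. Without the mice high in Saa1, 0 were lower and 1 higher in young females, and 0 were called in the interaction. With age in females 12 were higher and 1 lower, where 16.8% and 15% of all genes were called. With HDM201 in females 1 was lower (Orm2, -1.08), where 2.9% of all genes were. Their part in the changes of C3, C4b and Hc was not tested beyond leaving out the 4 mice. Of 18 hepatocyte transcription factors, Cux2 was higher in females in all 3 sex comparisons (5.78, 5.32 and 7.57), as was Cebpb (0.87, 1.24 and 1.44). With the mice high in Saa1 left out, the young and old HDM201 values were 5.81 and 7.35 for Cux2 and 1.48 and 1.58 for Cebpb, all called. Bcl6 was lower in females than males of the old HDM201 groups (-2.16, FDR 0.000217, and -2.13 without male 5), and Hnf4a was slightly lower with HDM201 in females (-0.27, FDR 0.032). With age in females Stat5a (0.80) and Stat3 (0.70) were higher and Nr1h4, the bile acid receptor, lower (-0.49).

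Markers of other cell types also differed between groups. Of 5 cholangiocyte markers, 2 were called higher with HDM201 in females, where 2.35% of all genes were (Epcam 0.96, Spp1 0.93), and their summed CPM was 49.9 to 71.6 in old vehicle females and 83.8 to 148 in old HDM201 females, without overlap. Of 5 B and plasma cell markers, 5 were higher with age in females (16.8% of all genes) and 4 in males (2.76%, and 0 without the mice high in Saa1), and of 2 neutrophil markers tested both were higher with age in females. For the neutrophil markers, of which 5 were listed, the share of all genes was again 16.8%. Their summed CPM was low, at 0 to 1.26 in young vehicle females and 2.38 to 22.6 in old vehicle females. Of 5 erythroid markers, none was called with HDM201 in females (0 by edgeR, 5 with an unadjusted p under 0.05). Of 9 hepatocyte markers tested, 2 were lower with age in females (15% of all genes) and 0 called with HDM201 in females (1 with an unadjusted p under 0.05). Their part in the results of the members was not tested.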

How the data were processed

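RNA was measured by RNA-seq in whole liver. Alignment by the authors used STAR and the mm10 genome, and HTSeq gave the raw counts per gene that they deposited for 27 mice and, from Cufflinks, FPKM for 29; tool versions and strandedness are not given in the sources used here. Members and gene lists were chosen with earlier results of these data known. From the counts, edgeR 4.0.16 (R 4.3.3) gave CPM with TMM library sizes and the quasi-likelihood test, fitted per comparison after filterByExpr (minimum count 10, minimum total 15), with Benjamini-Hochberg adjustment over all genes tested and a threshold of 0.05. TPM used exon lengths of GENCODE vM21. The scripts were tested on simulated data. The deposited FPKM were tested with limma 3.58.1 on log2(FPKM + 1), and DESeq2 1.42.0 was another alternative. Intervals are 95% confidence intervals of the log2 fold change between groups, with standard errors that rest on the spread between mice. The labels give separate mice, and no replicates agreed within sampling noise. Values per mouse are given for the called members of each comparison of 2 groups, at most the 8 with the largest change, and of the other lists at most the 6 largest are named. Proc, on chromosome 18, has no sequence shown. Some results on genes of the other lists are not reported here.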

Additional observations from a re-analysis of the deposited data

Results flagged for a closer look

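Among 102 groups examined (17 members in 6 groups of mice), 7 held a mouse far from the others of its group, meaning that the gap of the highest or lowest mouse to its neighbour, as a share of the range of the group, exceeded Dixon's 95% critical value. Chance gives about 1 in 20. C3 in old vehicle female 4 was 12773 CPM, against 11140.5 to 11296 CPM in the other mice. C4b in old vehicle male 4 was 2365 CPM against 1682 to 1769 CPM, and Mbl2 in old vehicle female 4 was 705 CPM against 541 to 561 CPM. C8b in young vehicle female 5 was low, at 89.4 CPM against 117 to 129 CPM. Cpb2 in old HDM201 male 5, a mouse high in Saa1, was 488 CPM against 293 to 344 CPM. F7 in old HDM201 female 1 was 256 CPM against 122 to 156 CPM. Hc in young vehicle male 1, the young male with low Saa1, was 622 CPM against 1216 to 1330.1 CPM.

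The effect of age differed between females and males by the interaction term in 4 members: F13b (-0.50), C4b (0.84), C3 (1.15) and C8b (-1.16). Without the 4 mice high in Saa1, which leaves 1 young male, the values were -0.34, 0.40, 0.45 and -1.63 (FDR 0.427, 0.502, 0.492 and 0.0585); none was past the threshold, and that of C8b was larger than with all mice.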

How the results depend on the processing

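Under the alternatives, no called member changed direction: of 1014 values over 56 called pairs of member and comparison, 803 stayed called and 211 did not. The causes were not tested. For HDM201 in females (3 called), DESeq2 called 6, limma on FPKM 1 and an FDR under 0.01 0, and in males (0) DESeq2 called 1. For age in males (1), DESeq2 called 2, a fit of all 6 groups 4, an FDR under 0.01 0 and the data without the mice high in Saa1, an alternative chosen after seeing the data, 0. For sex in young mice (9), DESeq2 called 15, an FDR under 0.01 5, limma on FPKM 5 and the data without those mice 4. For sex in old vehicle mice (11), library totals gave 19, DESeq2 18 and an FDR under 0.01 6, and for old HDM201 mice (14) an FDR under 0.01 gave 8. For the interaction of sex and HDM201 (0), DESeq2 called 3, and for that of sex and age (4), an FDR under 0.01, limma on FPKM and the data without the mice high in Saa1 each gave 0. For age in females limma on FPKM gave 13 higher and 4 lower. By the authors' FPKM 10 members had a median over 500, against 18 by TPM. Leaving out each mouse in turn gave 1 to 4 calls for HDM201 in females, 0 to 0 in males, 13 to 14 for age in females, 1 to 1 in males, 6 to 13, 8 to 13 and 9 to 16 for sex in young, old vehicle and old HDM201 mice, and 0 to 0 and 1 to 7 for the interactions with HDM201 and age.

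Mice with the same replicate number were not alike throughout: in no comparison was every correlation between them over 0.1. The pairs over 0.1 were 0 of 4 for HDM201 in females and 2 of 4 in males (highest 0.222). For age they were 0 of 4 in females and 0 of 3 in males. For sex they were 2 of 4 in young, 2 of 3 in old vehicle and 1 of 5 in old HDM201 mice. These values do not settle whether some mice were paired. With the replicate number as a block, calls were 2 and 0 for HDM201 in females and males, 11 and 0 for age, 6, 6 and 8 for sex in young, old vehicle and old HDM201 mice, and 0 and 1 for the interactions.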
